A study of Arabidopsis thaliana with 21 samples.

Results

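Transcripts of ATG genes, which encode the core proteins of autophagy, were followed in roots of Arabidopsis thaliana Col-0 over 7 groups of 3 arrays. A probe set belonged to the set when the platform annotation gave it 1 gene whose symbol is ATG followed directly by a number, and when its signal exceeded the 40th percentile of its array on at least 3 of the 21 arrays. This gave 8 probe sets of the 22810 on the array and of the 15284 that passed the same filter on signal. They were ATG3 (AT5G61500) and the ATG8 genes ATG8B (AT4G04620), ATG8C (AT1G62040), ATG8D (AT2G05630), ATG8E (AT2G45170), ATG8F (AT4G16520), ATG8G (AT3G60640) and ATG8H (AT3G06420). All 8 probe sets with such a symbol passed the filter, each on 21 of 21 arrays, so none was lost to low signal. Another 3 probe sets carry an ATG name only among the synonyms of their gene (ATG8A, ATG8I and ATG101) and are described apart. No other probe set with 1 gene carried such a symbol, so the results speak of the ATG8 family and the enzyme that lipidates it rather than of the whole machinery.

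Autophagy encloses cytoplasm in a double membrane, the autophagosome, and delivers it to the vacuole for breakdown. ATG8 is a small ubiquitin-like protein that is attached to the lipid phosphatidylethanolamine of that membrane, where it helps the membrane to grow and binds the receptors that bring cargo. The protease ATG4 first trims the end of ATG8, ATG7 activates it, and ATG3, an E2-like enzyme, passes it to the lipid. Plants carry a family of ATG8 genes. In Arabidopsis ATG8A to ATG8D form a group of near relatives, ATG8E to ATG8G another, and ATG8H and ATG8I a further one, whose proteins already end in the glycine to which the lipid is joined. Starvation for carbon or nitrogen is known to induce autophagy in plants, with the SnRK1 kinase promoting it and the TOR kinase holding it back.

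All plants were of the Col-0 accession, no mutant, transgene or other agent is named, and root tissue was taken throughout. Groups ATGE_3 and ATGE_9 came from soil kept at 23 °C, 65% relative humidity and constant light, and for ATGE_3 the labels add that soil was present in the sampled tissue. Plates of 0.5x GM, a plant nutrient medium, carried ATGE_94 and ATGE_98 without listed sucrose, and ATGE_95 and ATGE_99 with 5% sucrose, all under constant light at 20 °C. Only ATGE_93 had long days, and it stood at 22 °C on a nutrient medium named 1x MS, which held 1% sucrose. The labels do not say whether 0.5x GM holds sucrose by itself, so "GM alone" means only that none is listed. Most plants of ATGE_94 and ATGE_95 are likened to reference plants 7 days old. The labels give no age for the other groups. Background knowledge of this developmental series makes ATGE_98 and ATGE_99 later harvests than ATGE_94 and ATGE_95, and ATGE_9 a later one than ATGE_3, and "earlier" and "later" are used here in that sense. No label says that the arrays of a group came from separate cultures, so the p-values measure the spread between these samples, which may be technical. A whole root is a mixture of cell types, and fewer cells of a type cannot be told apart from less RNA per cell.

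The signals were intensities on a linear scale, scaled by the authors so that every array had the same trimmed mean, and array medians ran from 38.7 to 45.2. Within groups, Pearson's r between arrays was 0.977 to 0.987 across the probe sets tested, which are not independent replicates. Of 12 root markers 4 had a probe set with 1 gene (EXPA7, EXPA18, PER7 and XTH26, all genes of root hairs), and none was listed at 0. Their summed signal ran from 129 to 149 in ATGE_9 to 1833 to 2003 in ATGE_95. XTH26 lay below the 40th percentile on every array of ATGE_3, ATGE_9, ATGE_94, ATGE_98 and ATGE_93. Of 10 markers of green shoot tissue 2 had such a probe set, the light-harvesting gene LHCB4.1 and the Rubisco activase gene RCA, and their summed signal ran from 79.3 to 84.8 in ATGE_9 to 505 to 548 in ATGE_98. RNA integrity was read from the signal of the 3' control probe set of GAPDH divided by that of the 5' one. This GAPDH ratio was lowest in ATGE_93, at 0.638 ± 0.0473, and highest in ATGE_3, at 1.53 ± 0.121 (SD, n = 3). The same ratio for actin, the actin ratio, was also lowest in ATGE_93, at 4.20 ± 1.28, and highest in ATGE_9, at 10.5 ± 1.00.

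All 8 ATG probe sets differed among the 7 groups (limma moderated F test, adjusted p from 3.85e-16 for ATG8H to 8.81e-07 for ATG8G). This count says little about ATG genes, since 93.2% of all probe sets tested passed the same test. The ratio of the highest to the lowest group mean ran from 1.55-fold for ATG3 to 5.07-fold for ATG8H. Its median over the 8 was 2.21-fold, against 1.88-fold over all probe sets tested. ATG8H stood at percentile 90.7 of that ratio among all probe sets tested, ATG8B at 81.4 and ATG3 at 26.1. In 5 of the 8 the lowest mean was that of ATGE_3, and in 2 more, ATG8D and ATG8H, it was that of ATGE_9, the other soil group. ATG8G was the exception, with its lowest mean in ATGE_94. The share of all probe sets tested with their lowest mean on soil was not counted, so these counts alone do not set ATG genes apart.

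**Figure D1:**
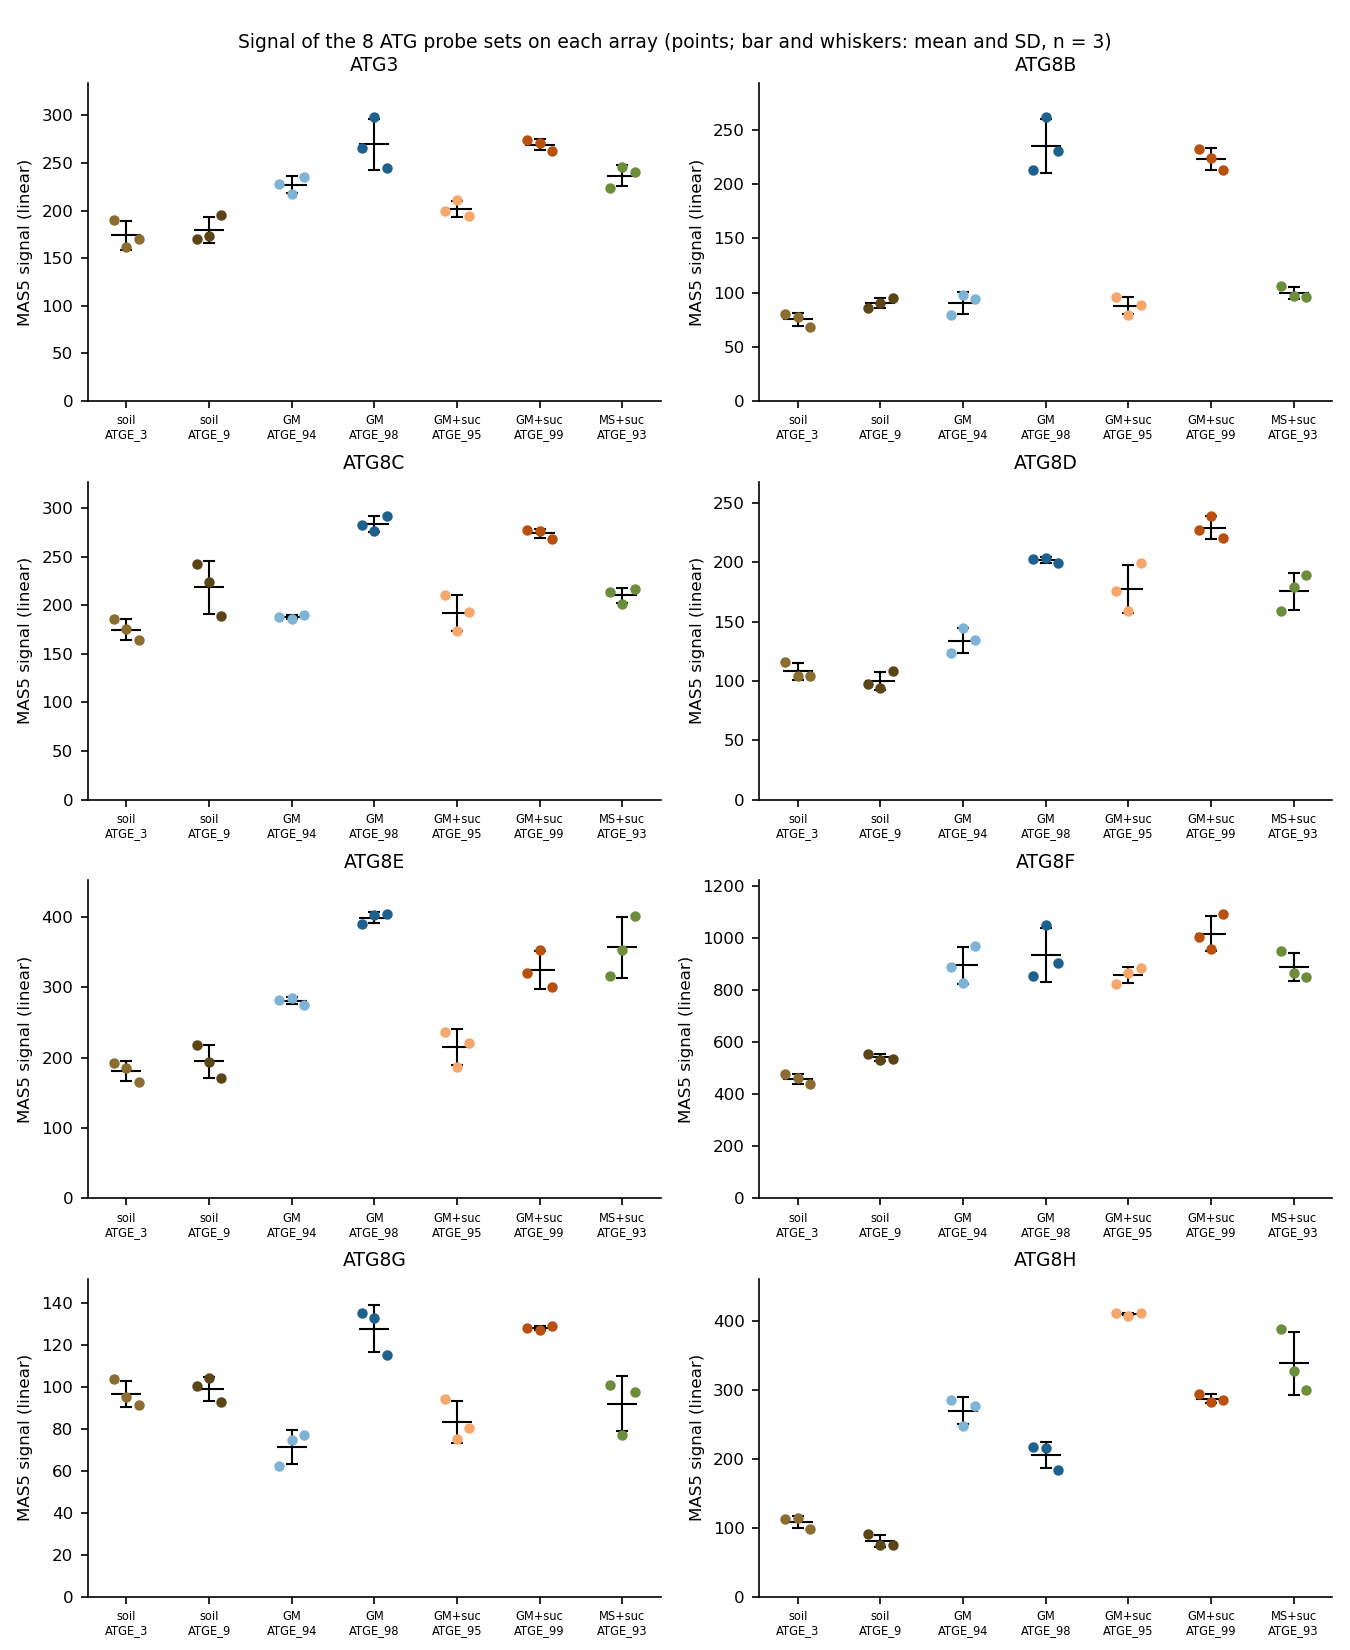
MAS5 signal (linear scale, y axis) of each of the 8 ATG probe sets on every array, by group (x axis). Points are arrays, and the bar and whiskers give the mean and SD (n = 3). ATG8F and ATG8H lie lowest in both soil groups, and ATG8B stands apart in ATGE_98 and ATGE_99, where it reads 213 to 262 against 68.3 to 106 on all other arrays.

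ATG3 is the enzyme that joins every ATG8 protein to the membrane, and it varied least of the 8. ATG3 on soil gave 191, 161 and 170.04 on the arrays of ATGE_3, and 170.03, 173 and 196 on those of ATGE_9. On GM alone ATG3 gave 228, 217 and 236 in ATGE_94 and 266, 298 and 245 in ATGE_98. With sucrose, ATG3 gave 199, 211 and 194 in ATGE_95, 274, 271 and 263 in ATGE_99, and 224, 245 and 241 on MS in ATGE_93. The arrays of both later GM groups lay above every other array, except that the lowest array of ATGE_98, at 244.6, lay just below the highest of ATGE_93, at 245.4. Soil arrays reached 196 at most, within the range of ATGE_95 and below all arrays of ATGE_94, ATGE_98, ATGE_99 and ATGE_93. In the order of means, from 269 ± 27.02 in ATGE_98 to 174 ± 15.01 in ATGE_3 (SD, n = 3), neighbouring groups overlapped except between ATGE_99 and ATGE_93 and between ATGE_94 and ATGE_95.

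ATG8B, one of the ATG8A to ATG8D relatives, showed a step between the later GM groups and everything else. ATG8B on soil gave 80.2, 77.1 and 68.3 on the arrays of ATGE_3, and 85.99, 90.4 and 94.9 on those of ATGE_9. On GM alone ATG8B gave 79.3, 97.5 and 94.4 in ATGE_94 and 214, 262 and 231 in ATGE_98. With sucrose, ATG8B gave 95.8, 79.5 and 88.7 in ATGE_95, 233, 225 and 213 in ATGE_99, and 106, 96.5 and 95.96 on MS in ATGE_93. The means of ATGE_98 and ATGE_99 were 235 ± 24.6 and 224 ± 10.02, and these groups overlapped each other. The next mean in order was 99.4 ± 5.48 in ATGE_93, whose arrays lay wholly below both. From ATGE_9 through ATGE_94 and ATGE_95 to ATGE_3, each group overlapped the next.

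ATG8C, a close relative of ATG8B, followed the same order at the top with a smaller step. ATG8C on soil gave 185, 175 and 164 on the arrays of ATGE_3, and 242, 224 and 189 on those of ATGE_9. On GM alone ATG8C gave 188, 185 and 189.9 in ATGE_94 and 282, 276 and 292 in ATGE_98. With sucrose, ATG8C gave 210.4, 173 and 193 in ATGE_95, 277, 276 and 268 in ATGE_99, and 213, 201 and 216 on MS in ATGE_93. Both later GM groups overlapped each other and lay above all other arrays. Below them, from 218 ± 26.9 in ATGE_9 to 175 ± 10.9 in ATGE_3, every group overlapped the next.

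ATG8D, also of that group of relatives, was high in the later GM groups and low on soil. ATG8D on soil gave 116, 104 and 104 on the arrays of ATGE_3, and 97.8, 94.03 and 108 on those of ATGE_9. On GM alone ATG8D gave 123, 144 and 134 in ATGE_94 and 203, 204 and 199 in ATGE_98. With sucrose, ATG8D gave 176, 159 and 199 in ATGE_95, 228, 239 and 220.5 in ATGE_99, and 159, 179 and 189 on MS in ATGE_93. The highest group, ATGE_99, lay wholly above ATGE_98, and ATGE_98 overlapped ATGE_95 by a single array value. Both soil groups, which overlapped each other, lay below every plate array.

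ATG8E belongs with ATG8F and ATG8G. ATG8E on soil gave 192, 185 and 165 on the arrays of ATGE_3, and 218, 194 and 171 on those of ATGE_9. On GM alone ATG8E gave 282, 284 and 275 in ATGE_94 and 389, 403 and 404 in ATGE_98. With sucrose, ATG8E gave 237, 187 and 220.2 in ATGE_95, 320.3, 353 and 300.2 in ATGE_99, and 316, 354 and 402 on MS in ATGE_93. The mean was highest in ATGE_98 at 399 ± 8.05, overlapped by ATGE_93, which in turn overlapped ATGE_99. ATGE_94 lay apart from both of its neighbours in the order, ATGE_99 above it and ATGE_95 below it. The soil groups and ATGE_95 overlapped in turn at the low end.

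ATG8F split the groups by substrate. ATG8F on soil gave 477, 461 and 438 on the arrays of ATGE_3, and 555, 531 and 535 on those of ATGE_9. On GM alone ATG8F gave 889, 826 and 966 in ATGE_94 and 852, 1049 and 901 in ATGE_98. With sucrose, ATG8F gave 824, 865 and 883 in ATGE_95, 1003, 955 and 1089 in ATGE_99, and 949, 864 and 848 on MS in ATGE_93. The highest soil array, at 555, stood well below the lowest plate array, at 824. Among the 5 plate groups, from 1015 ± 68.4 in ATGE_99 to 857 ± 30.6 in ATGE_95, each overlapped the next. The 2 soil groups did not overlap, with ATGE_9 the higher.

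ATG8G, a relative of ATG8E and ATG8F, had its lowest mean on the younger GM plates. ATG8G on soil gave 104, 95.1 and 91.3 on the arrays of ATGE_3, and 100.5, 104 and 92.8 on those of ATGE_9. On GM alone ATG8G gave 62.2, 74.6 and 77.04 in ATGE_94 and 135, 133 and 115 in ATGE_98. With sucrose, ATG8G gave 94.1, 74.98 and 80.6 in ATGE_95, 128, 127 and 129 in ATGE_99, and 101, 77.2 and 97.7 on MS in ATGE_93. ATGE_99 and ATGE_98 overlapped and lay above every other array. Both soil groups came next, at 99.1 ± 5.75 and 96.6 ± 6.27, and the younger plates of ATGE_94 were lowest at 71.3 ± 7.96. From ATGE_9 downward each group overlapped the next.

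ATG8H, of the group whose proteins need no trimming, varied most. ATG8H on soil gave 113, 114 and 97.7 on the arrays of ATGE_3, and 91.5, 75.8 and 75.4 on those of ATGE_9. On GM alone ATG8H gave 285, 248 and 277 in ATGE_94 and 217, 216 and 184 in ATGE_98. With sucrose, ATG8H gave 411, 408 and 412 in ATGE_95, 295, 282 and 286 in ATGE_99, and 388, 328 and 299.5 on MS in ATGE_93. The younger sucrose plates of ATGE_95 were highest at 410.1 ± 2.02, apart from ATGE_93 at 338 ± 45.1 and from ATGE_99 at 288 ± 6.29. Only ATGE_99 and ATGE_94 overlapped in the order of the 7 groups. Both soil groups lay far below all plate arrays, at 108 ± 8.97 in ATGE_3 and 80.9 ± 9.21 in ATGE_9.

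The first comparison asked what 5% sucrose in the medium changed in the younger plate roots, ATGE_95 against ATGE_94. ATG8H and ATG8D were higher with sucrose and ATG8E was lower. ATG8H rose 1.52-fold, by 0.61 ± 0.10 on the log2 scale (SE of the fit, n = 3 per group, limma adjusted p = 3.01e-05), from 269.8 ± 19.3 to 410.1 ± 2.02. ATG8D rose 1.33-fold, from 134 ± 10.5 to 178 ± 20.3 (log2 0.41 ± 0.09, limma adjusted p = 0.00111). ATG8E changed the other way, 1.31-fold, from 281 ± 4.90 down to 215 ± 25.5 (log2 −0.39 ± 0.10, limma adjusted p = 0.00327). In each of the 3 the arrays of the groups did not overlap. The count of 3 of 8 past adjusted p < 0.05 stood beside 34.4% of all probe sets tested, 15.2% higher and 19.2% lower, and 4 of 8 with arrays apart beside 41.2%. The fourth was ATG3, at log2 −0.17 ± 0.08 with a 95% interval from −0.34 to −0.01, which missed the threshold (limma adjusted p = 0.0975). ATG8B, ATG8C, ATG8F and ATG8G also missed it, with intervals from −0.24 to 0.16, −0.14 to 0.20, −0.21 to 0.10 and 0.00 to 0.45.

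The median log2 difference of the 8 was 0.00, against −0.03 over all probe sets tested. The 3 calls held without any single array. Under quantile normalization ATG8F also passed, at −0.20 (adjusted p = 0.0244). Over all probe sets the calls were 2321 higher and 2930 lower, and 3036 higher and 2143 lower when each array was centred on its median. The summed green shoot markers read 402 to 468 in ATGE_94 and 234 to 294 in ATGE_95, and the summed root hair markers 712 to 812 and 1833 to 2003. The GAPDH ratio was 0.718 ± 0.107 in ATGE_94 and 0.926 ± 0.199 in ATGE_95. The actin ratio was 8.24 ± 0.900 in ATGE_94 and 9.86 ± 2.70 in ATGE_95. Their part in the result was not tested.

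In the later plate roots, ATGE_99 against ATGE_98, ATG8H was again higher with sucrose and ATG8E lower. ATG8H rose 1.40-fold, from 206 ± 18.4 to 288 ± 6.29 (log2 0.49 ± 0.10, SE, n = 3 per group, limma adjusted p = 0.000477), and the arrays did not overlap. ATG8E fell 1.23-fold, from 399 ± 8.05 to 325 ± 26.7 (log2 −0.30 ± 0.10, limma adjusted p = 0.0275). The ATG8E call was lost without any of 4 arrays, at adjusted p = 0.0713 without ATGE_98 replicate 2, 0.0692 without ATGE_98 replicate 3, 0.0753 without ATGE_99 replicate 1 and 0.125 without ATGE_99 replicate 3. ATG8D, called in the younger plates, gave 0.18 ± 0.09 here (95% interval 0.00 to 0.37, limma adjusted p = 0.149). ATG8F gave 0.12 ± 0.07 (limma adjusted p = 0.246), and passed without ATGE_98 replicate 2 (log2 0.21, adjusted p = 0.0469). The other 4 lay between −0.07 for ATG8B and 0.01 for ATG8G. So 2 of 8 passed, beside 24.6% of all probe sets tested, 12.7% higher and 11.9% lower, and 3 of 8 had arrays apart, beside 41.6%. The summed green shoot markers read 505 to 548 in ATGE_98 and 392 to 444 in ATGE_99, the summed root hair markers 451 to 523 and 1036 to 1162, the GAPDH ratio 1.15 ± 0.164 and 0.856 ± 0.0284, and the actin ratio 8.23 ± 1.02 and 6.46 ± 0.677. Their part in the result was not tested.

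Whether the response to sucrose differed between the younger and the later plates was tested as the difference of both responses, later minus earlier. Of the 8 genes 0 passed in limma, beside 12.5% of all probe sets tested (7.07% higher and 5.44% lower), and 0 had an unadjusted p under 0.05. For ATG8H the difference was −0.12 ± 0.13 with a 95% interval from −0.40 to 0.16, and for ATG8E 0.09 ± 0.14 with an interval from −0.19 to 0.38. For ATG8D, called only in the younger plates, it was −0.22 ± 0.13 with an interval from −0.49 to 0.04, so its responses at both stages are not shown to differ. Under quantile normalization ATG8F passed, at 0.34 (adjusted p = 0.0190). The number of probe sets called in all, 1911, fell to 1237 without ATGE_94 replicate 1. Their split of 1080 higher and 831 lower became 653 higher and 1412 lower after median centring, which moved the median of all log2 differences by −0.11.

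**Figure D2:**
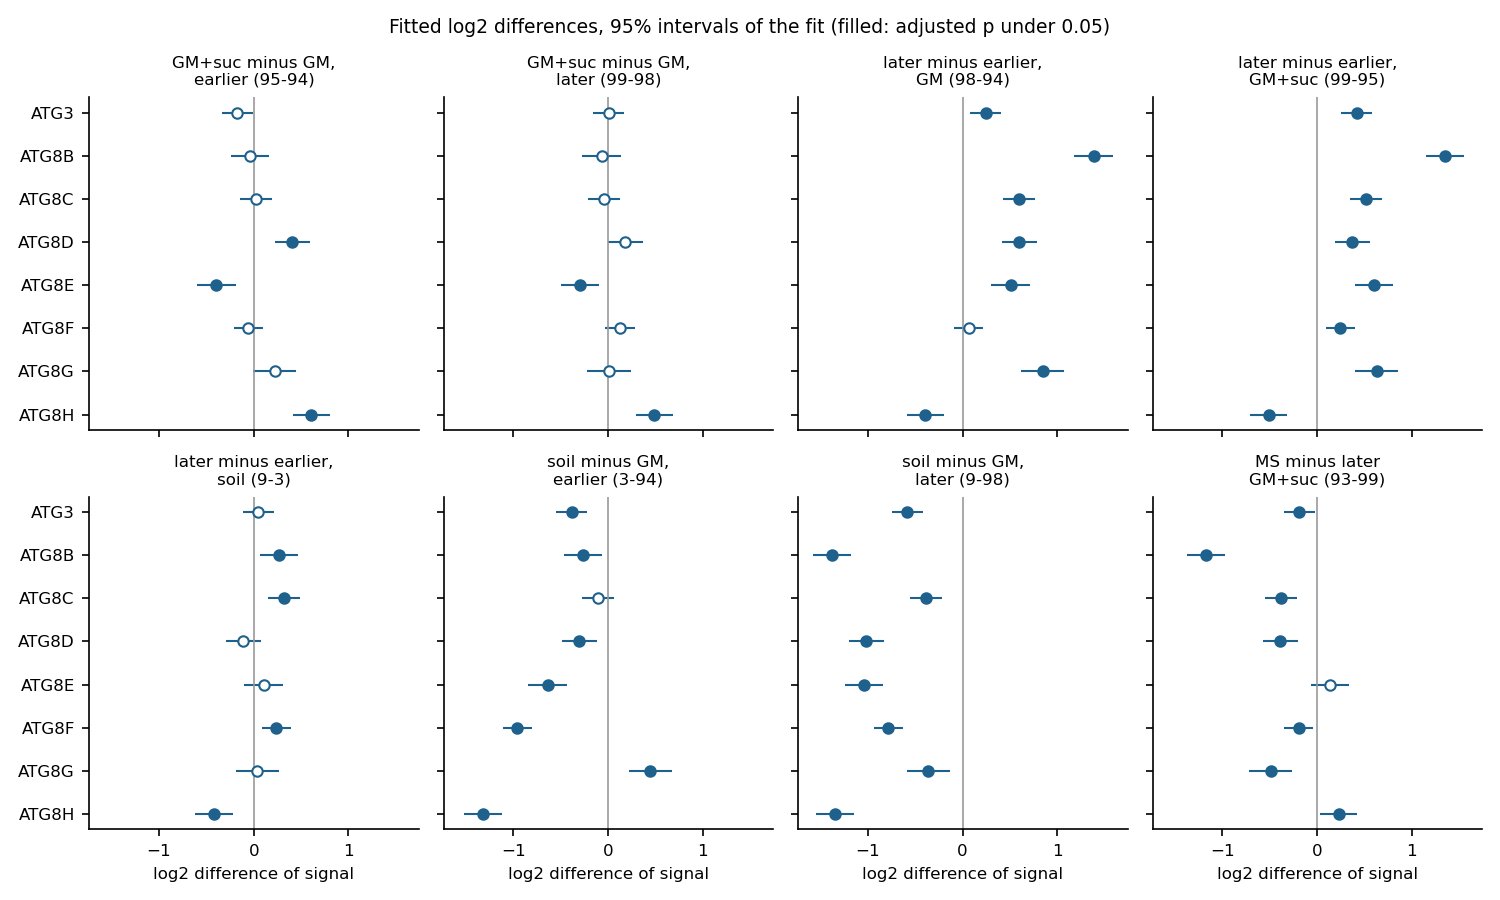
Fitted log2 difference of signal (x axis) for the 8 ATG genes (y axis) in 8 comparisons, with 95% intervals of the fit. Numbers in the panel titles name the groups compared, filled points passed adjusted p < 0.05, and the vertical line marks no difference. ATG8H lies to the right of 0 with sucrose, to the left in all 3 comparisons of later with earlier sets, and at −1.32 and −1.35 on soil against GM.

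Later plates were next compared with earlier ones on GM alone, ATGE_98 against ATGE_94. Each stage is a separate set of plants, so stage and anything else that set them apart cannot be told apart. ATG8B, ATG8G, ATG8D, ATG8C, ATG8E and ATG3 were higher in the later set, and ATG8H was lower. ATG8B rose 2.61-fold, from 90.4 ± 9.74 to 235 ± 24.6 (log2 1.38 ± 0.10, SE, n = 3 per group, limma adjusted p = 1.35e-10). ATG8G rose 1.79-fold, from 71.3 ± 7.96 to 128 ± 11.1 (limma adjusted p = 1.76e-06). ATG8D, ATG8C and ATG8E rose by 0.60 ± 0.09, 0.59 ± 0.08 and 0.51 ± 0.10 on the log2 scale. ATG3 rose least, by 0.24 ± 0.08 (limma adjusted p = 0.0170). ATG8H fell 1.31-fold, from 269.8 ± 19.3 to 206 ± 18.4 (log2 −0.39 ± 0.10, limma adjusted p = 0.00197). ATG8F gave 0.06 ± 0.07, with a 95% interval from −0.09 to 0.22.

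The 7 calls of 8 stood beside 41.7% of all probe sets tested. Of them 6 were upward, beside 21.3% of all probe sets tested, and 1 downward, beside 20.4%. In those 7 the arrays of the groups did not overlap, beside 48.4% of all. The median log2 difference was 0.55 for the 8 and 0.02 for all probe sets tested. The ATG3 call was lost without ATGE_94 replicate 2 (adjusted p = 0.0703), without ATGE_98 replicate 2 (log2 0.17, 0.117), after median centring (log2 0.15, 0.157) and with only these groups in the fit (0.0514). Median centring turned all calls from 3253 higher and 3115 lower to 2360 higher and 4214 lower. The GAPDH ratio was 0.718 ± 0.107 in ATGE_94 and 1.15 ± 0.164 in ATGE_98, the summed green shoot markers 402 to 468 and 505 to 548, and the summed root hair markers 712 to 812 and 451 to 523. The actin ratio was 8.24 ± 0.900 in ATGE_94 and 8.23 ± 1.02 in ATGE_98. Their part in the result was not tested.

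Between the sucrose plates of both stages, ATGE_99 minus ATGE_95, 7 of the 8 genes were higher in the later set and ATG8H was lower. These 8 calls stood beside 47.9% of all probe sets tested, with 27.9% called upward and 20% downward. Arrays did not overlap in 8 of 8, beside 55.6%. ATG8B rose 2.55-fold, from 87.98 ± 8.16 to 224 ± 10.02 (log2 1.35 ± 0.10, SE, n = 3 per group, limma adjusted p = 1.40e-10). ATG8G and ATG8E rose by 0.63 ± 0.11 and 0.60 ± 0.10, ATG8C and ATG3 by 0.52 ± 0.08 and 0.42 ± 0.08, and ATG8D and ATG8F by 0.37 ± 0.09 and 0.24 ± 0.07. ATG8H fell 1.43-fold, from 410.1 ± 2.02 to 288 ± 6.29 (log2 −0.51 ± 0.10, limma adjusted p = 0.000121). The median of the 8 was 0.47, against 0.08 for all probe sets tested.

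This comparison depended on the scaling, since median centring moved the median of all log2 differences by −0.20 and quantile normalization by −0.10. The calls over all probe sets went from 4270 higher and 3057 lower to 2346 higher and 5231 lower and 3227 higher and 3722 lower, in that order. With median centring ATG8B gave 1.15 and ATG8H −0.71, and all 8 kept their direction. ATG3 came down to 0.22 and ATG8C to 0.32, both still past the threshold (adjusted p = 0.0346 and 0.00219), and quantile normalization took ATG8F to 0.46. ATG8D at 0.18 and ATG8F at 0.05 no longer passed there (adjusted p = 0.125 and 0.667). ATG8F was also lost without ATGE_99 replicate 3 (adjusted p = 0.0667). The summed green shoot markers read 234 to 294 in ATGE_95 and 392 to 444 in ATGE_99, and the summed root hair markers 1833 to 2003 and 1036 to 1162. From ATGE_95 to ATGE_99 the GAPDH ratio went from 0.926 ± 0.199 to 0.856 ± 0.0284 and the actin ratio from 9.86 ± 2.70 to 6.46 ± 0.677. Their part in the result was not tested.

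On soil, ATGE_9 against ATGE_3, 3 genes were higher and ATG8H was lower in the later set. ATG8C rose 1.24-fold, from 175 ± 10.9 to 218 ± 26.9 (log2 0.31 ± 0.08, SE, n = 3 per group, limma adjusted p = 0.00551). ATG8B rose by 0.27 ± 0.10 (limma adjusted p = 0.0435) and ATG8F by 0.24 ± 0.07 (limma adjusted p = 0.0201). ATG8H fell 1.34-fold, from 108 ± 8.97 to 80.9 ± 9.21 (log2 −0.42 ± 0.10, limma adjusted p = 0.00180). ATG3, ATG8D, ATG8E and ATG8G did not pass, with 95% intervals from −0.12 to 0.21, −0.30 to 0.07, −0.10 to 0.31 and −0.19 to 0.26. The 4 calls of 8 stood beside 26.7% of all probe sets tested. The 3 calls upward stood beside 11.4% of all probe sets tested and the 1 downward beside 15.3%, and median centring turned 1742 higher and 2339 lower into 2149 higher and 1767 lower. Arrays did not overlap in 4 of 8, beside 45.2%.

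Among these soil calls only that of ATG8H held under every alternative run. ATG8B was lost without any of 5 of the 6 arrays, all but ATGE_3 replicate 1, at adjusted p from 0.0519 to 0.192. It was also lost with no filter on signal (0.0566), with no intensity trend (0.0524) and with the replicate letter as a block (0.0550). ATG8C was lost without ATGE_9 replicate 1 (0.0526), and ATG8F without that array (0.0737) or ATGE_3 replicate 3 (0.0864). The GAPDH ratio was 1.53 ± 0.121 in ATGE_3 and 1.22 ± 0.177 in ATGE_9, the summed green shoot markers 83.2 to 88.4 and 79.3 to 84.8, and the summed root hair markers 198 to 256 and 129 to 149. The actin ratio was 10.3 ± 1.53 in ATGE_3 and 10.5 ± 1.00 in ATGE_9. The part of these, and of the soil that came with the tissue of ATGE_3, was not tested.

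The difference between the stage effects on GM and on soil was tested directly, as a comparison added after the levels had been seen. The labels do not give the time between the sets on either substrate, so length of interval and substrate cannot be told apart. ATG8B responded more on GM by 1.11 ± 0.14 on the log2 scale (SE, n = 3 per group, limma adjusted p = 1.18e-06), ATG8G by 0.81 ± 0.16 (adjusted p = 0.000322) and ATG8D by 0.71 ± 0.13 (adjusted p = 0.000132). ATG8E passed at 0.40 ± 0.14 (adjusted p = 0.0303), but this call was lost without any of 7 of the 12 arrays. Those were ATGE_3 replicates 1 and 2, ATGE_9 replicates 2 and 3, ATGE_94 replicate 3, and ATGE_98 replicates 2 and 3, with adjusted p from 0.0503 to 0.0980. After median centring ATG8E gave 0.26 (adjusted p = 0.147). For ATG8H the difference was 0.03 ± 0.13, with a 95% interval from −0.25 to 0.30. ATG8C missed the threshold at 0.28 ± 0.12 (adjusted p = 0.0717) and passed without ATGE_9 replicate 1 (0.0238). ATG3 gave 0.20 ± 0.11 and ATG8F −0.18 ± 0.11, which passed after median centring at −0.32 (adjusted p = 0.0419). The 4 upward calls of 8 stood beside 30.5% of all probe sets tested, 17.1% upward and 13.4% downward, whose calls, 2610 higher and 2044 lower, became 1763 higher and 3318 lower after median centring.

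**Figure D3:**
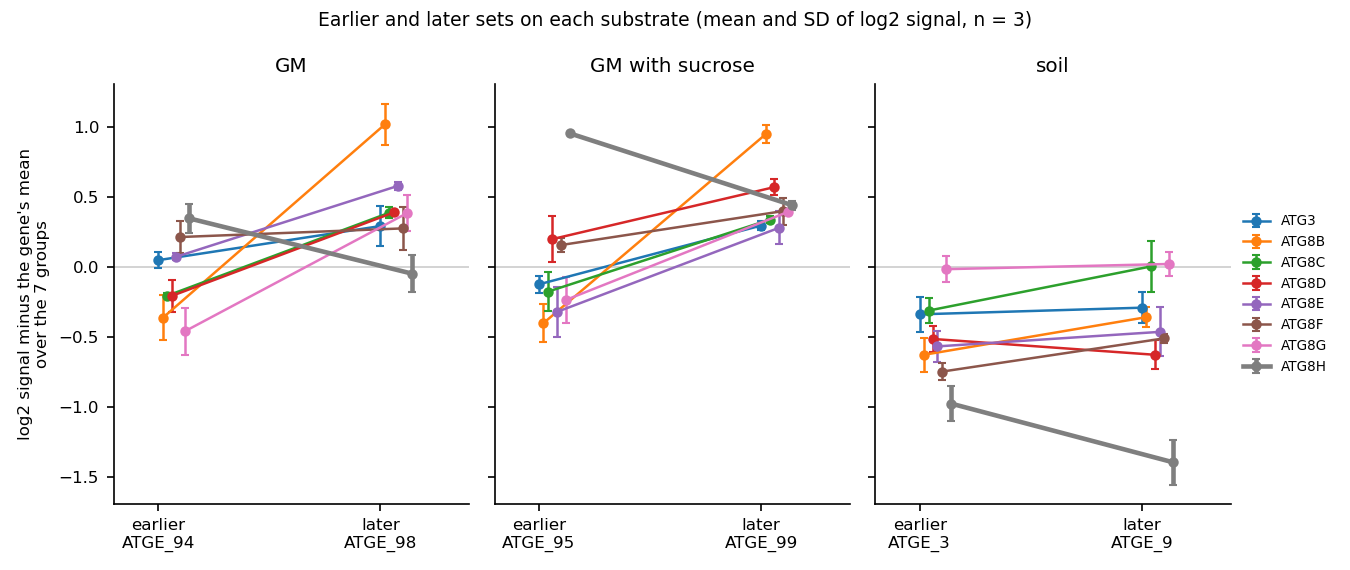
Log2 signal of each ATG gene, minus its mean over the 7 groups (y axis), in the earlier and later set of GM, GM with sucrose, and soil. Points and whiskers are mean and SD (n = 3). ATG8H (thick grey line) falls in all 3 panels, while ATG8B climbs by 1.38 on GM, 1.35 on GM with sucrose and 0.27 on soil.

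Soil roots were then set against GM roots without listed sucrose, first in the earlier sets, ATGE_3 against ATGE_94. These groups differ also in temperature, and humidity is given only for soil. No age is given for ATGE_3, nor for the later groups ATGE_9 and ATGE_98. Substrate, climate and age therefore cannot be told apart in either soil comparison. ATG8H and ATG8F were much lower on soil. ATG8H was 2.50-fold lower, at 108 ± 8.97 against 269.8 ± 19.3 (log2 −1.32 ± 0.10, SE, n = 3 per group, limma adjusted p = 2.71e-11). ATG8F was 1.95-fold lower, at 458 ± 19.3 against 894 ± 70.3 (limma adjusted p = 1.01e-10). ATG8E, ATG3, ATG8D and ATG8B were lower by smaller amounts, with log2 differences of −0.64 ± 0.10, −0.39 ± 0.08, −0.31 ± 0.09 and −0.26 ± 0.10. ATG8G went the other way and was 1.36-fold higher on soil, at 96.6 ± 6.27 against 71.3 ± 7.96 (log2 0.44 ± 0.11, limma adjusted p = 0.00118). ATG8C gave −0.11 ± 0.08 and missed the threshold (95% interval −0.27 to 0.06), although it passed after median centring (−0.19, adjusted p = 0.0461).

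In this comparison 7 of 8 passed, beside 65.5% of all probe sets tested. Of these 6 were downward, beside 30.4% of all probe sets tested, and 1 upward, beside 35.1%. Arrays did not overlap in 6 of 8, beside 68.5%. The median was −0.35 for the 8 and 0.05 for all. The ATG8B call was lost without ATGE_3 replicate 3 (adjusted p = 0.115), ATGE_94 replicate 2 (0.103) or ATGE_94 replicate 3 (0.0723), and with only these groups in the fit (0.0630). The GAPDH ratio was 1.53 ± 0.121 in ATGE_3 and 0.718 ± 0.107 in ATGE_94. The actin ratio was 10.3 ± 1.53 in ATGE_3 and 8.24 ± 0.900 in ATGE_94. Summed green shoot markers read 83.2 to 88.4 and 402 to 468, and summed root hair markers 198 to 256 and 712 to 812. The part of RNA integrity, of other tissue and of the soil in the sample was not tested.

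In the later sets, ATGE_9 against ATGE_98, all 8 ATG probe sets were lower on soil, beside 66.8% of all probe sets tested that passed, 32.9% lower and 33.9% higher. Arrays did not overlap in 8 of 8, beside 71.7%. ATG8B was 2.60-fold lower, at 90.4 ± 4.46 against 235 ± 24.6 (log2 −1.38 ± 0.10, SE, n = 3 per group, limma adjusted p = 1.42e-11), and ATG8H 2.54-fold lower, at 80.9 ± 9.21 against 206 ± 18.4 (log2 −1.35 ± 0.10). ATG8E and ATG8D differed by −1.04 ± 0.10 and −1.02 ± 0.09, ATG8F by −0.79 ± 0.07 and ATG3 by −0.58 ± 0.08. The smallest differences were those of ATG8C at −0.38 ± 0.08 and ATG8G at −0.36 ± 0.11 (limma adjusted p = 0.00576). The median of the 8 was −0.90, against 0.00 for all probe sets tested. All 8 calls and their direction held under every alternative run, leaving out each array included.

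Between these groups the GAPDH ratio was 1.22 ± 0.177 in ATGE_9 and 1.15 ± 0.164 in ATGE_98, and the actin ratio 10.5 ± 1.00 and 8.23 ± 1.02. Summed green shoot markers read 79.3 to 84.8 and 505 to 548, summed root hair markers 129 to 149 and 451 to 523, and their part in the result was not tested. Both comparisons of stage on GM and on soil share arrays with these comparisons of substrate. The test of the difference given above is also the test of whether the soil difference changed with stage, so the soil difference of ATG8B, ATG8G, ATG8D and, less firmly, ATG8E moved downward from the earlier to the later sets.

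Group ATGE_93, on MS with 1% sucrose in long days, was set against ATGE_99, the later GM plates with 5% sucrose. Medium, sucrose, day length and temperature all differ between these groups and cannot be told apart. The labels give no age for either group, so age may differ too. ATG8B was 2.25-fold lower in ATGE_93, at 99.4 ± 5.48 against 224 ± 10.02 (log2 −1.17 ± 0.10, SE, n = 3 per group, limma adjusted p = 1.02e-09). ATG8G was 1.40-fold lower, at 91.97 ± 12.9 against 128 ± 0.933 (log2 −0.49 ± 0.11, limma adjusted p = 0.000647). These 2 calls held under every alternative run, although ATG8G came down to −0.27 after median centring (adjusted p = 0.0451). ATG8D, ATG8C, ATG8F and ATG3 were also lower, with log2 differences of −0.39 ± 0.09, −0.38 ± 0.08, −0.19 ± 0.07 and −0.19 ± 0.08 (limma adjusted p = 0.0297 for ATG8F and 0.0493 for ATG3). ATG8H was higher by 0.23 ± 0.10 (limma adjusted p = 0.0464), and ATG8E gave 0.13 ± 0.10 (limma adjusted p = 0.255). In all, 7 of 8 passed, beside 56.3% of all probe sets tested, with 6 downward, beside 33.7% of all probe sets tested, and 1 upward, beside 22.6%. Arrays did not overlap in 7 of 8, beside 65.4%.

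Median centring moved the median of all log2 differences by 0.22 here and quantile normalization by 0.12. All calls went from 3452 higher and 5153 lower to 5433 higher and 3030 lower and 4216 higher and 3936 lower, in that order. After median centring ATG3 and ATG8F turned to 0.03 and 0.02, and ATG8C and ATG8D no longer passed (adjusted p = 0.0852 and 0.125). ATG8H moved to 0.44 (adjusted p = 0.000385), while quantile normalization left it at 0.19 (0.0894) and took ATG8F to −0.42. ATG8E passed upward after median centring, at 0.35 (adjusted p = 0.00401). The ATG3 call was lost without any of the 6 arrays of ATGE_93 and ATGE_99 (adjusted p from 0.0524 to 0.169). That of ATG8H was lost without any of 5, all but ATGE_93 replicate 3 (from 0.0635 to 0.296, log2 0.12 without ATGE_93 replicate 1), and that of ATG8F without ATGE_93 replicates 2 or 3 or ATGE_99 replicates 1 or 3 (from 0.0529 to 0.153). The GAPDH ratio was 0.638 ± 0.0473 in ATGE_93 and 0.856 ± 0.0284 in ATGE_99, the summed green shoot markers 237 to 273 and 392 to 444, and the summed root hair markers 1408 to 1518 and 1036 to 1162. The actin ratio was 4.20 ± 1.28 in ATGE_93 and 6.46 ± 0.677 in ATGE_99. Their part in the result was not tested.

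The 3 probe sets that carry an ATG name only as a synonym were measured on the same arrays. ATG8I (AT3G15580, platform symbol APG8H) is the nearest relative of ATG8H. ATG8I on soil gave 381, 407 and 328 on the arrays of ATGE_3, and 411, 454 and 385 on those of ATGE_9. On GM alone ATG8I gave 508, 567 and 565 in ATGE_94 and 796, 735 and 804 in ATGE_98. With sucrose, ATG8I gave 694, 588 and 638 in ATGE_95, 755, 730.4 and 788 in ATGE_99, and 544, 543 and 585 on MS in ATGE_93. ATG8I lay highest in the later GM groups and lowest on soil. From the earlier to the later GM set ATG8I rose 1.42-fold (log2 0.51 ± 0.08, limma adjusted p = 2.07e-05), where ATG8H fell. With sucrose it rose by 0.23 ± 0.08 in the younger plates (limma adjusted p = 0.0323) and gave −0.04 ± 0.08 in the later. On soil it was lower, with log2 differences from GM of −0.56 ± 0.08 in the earlier and −0.90 ± 0.08 in the later sets. The change of ATG8I with stage was larger on GM than on soil, by 0.35 ± 0.11 (limma adjusted p = 0.0236).

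ATG8A (AT4G21980, platform symbol APG8A) is a close relative of ATG8B to ATG8D. ATG8A on soil gave 309.6, 299 and 271 on the arrays of ATGE_3, and 349, 293 and 287 on those of ATGE_9. On GM alone ATG8A gave 379.7, 422 and 447 in ATGE_94 and 529, 468 and 547 in ATGE_98. With sucrose, ATG8A gave 460.2, 443 and 465 in ATGE_95, 502, 556 and 463 in ATGE_99, and 507, 479.5 and 568 on MS in ATGE_93. All plate arrays of ATG8A lay above all soil arrays. The soil difference was −0.51 ± 0.09 in the earlier and −0.74 ± 0.09 in the later sets (limma adjusted p = 3.12e-05 and 1.39e-07). ATG8A rose on GM with stage by 0.31 ± 0.09 (limma adjusted p = 0.00821). Its stage differences of 0.15 ± 0.09 on GM with sucrose and 0.08 ± 0.09 on soil did not pass (limma adjusted p = 0.171 and 0.579). Its sucrose differences of 0.13 ± 0.09 and −0.02 ± 0.09 did not pass.

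ATG101 (AT5G66930) encodes a subunit of the ATG1 kinase complex, which starts autophagosome formation. ATG101 on soil gave 86.1, 99.7 and 110.03 on the arrays of ATGE_3, and 106, 109.7 and 97.8 on those of ATGE_9. On GM alone ATG101 gave 166, 146 and 153 in ATGE_94 and 198, 135 and 215 in ATGE_98. With sucrose, ATG101 gave 141, 146 and 137 in ATGE_95, 218, 222 and 204 in ATGE_99, and 174, 149.9 and 165 on MS in ATGE_93. The second array of ATGE_98 stood apart, below every array of ATGE_95. ATG101 was lower on soil, with log2 differences of −0.66 ± 0.12 in the earlier and −0.78 ± 0.12 in the later sets (limma adjusted p = 5.32e-05 and 5.72e-06). With sucrose it gave −0.13 ± 0.12 and 0.26 ± 0.12, neither of which passed. With stage it rose on GM with sucrose by 0.60 ± 0.12 (limma adjusted p = 0.000280). Its stage differences of 0.21 ± 0.12 on GM and 0.09 ± 0.12 on soil did not pass (limma adjusted p = 0.173 and 0.631). Thus in the later sets all 8 members and these 3 probe sets were lower on soil than on GM. Of all probe sets tested 66.8% passed in that comparison, 32.9% lower.

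**Figure D4:**
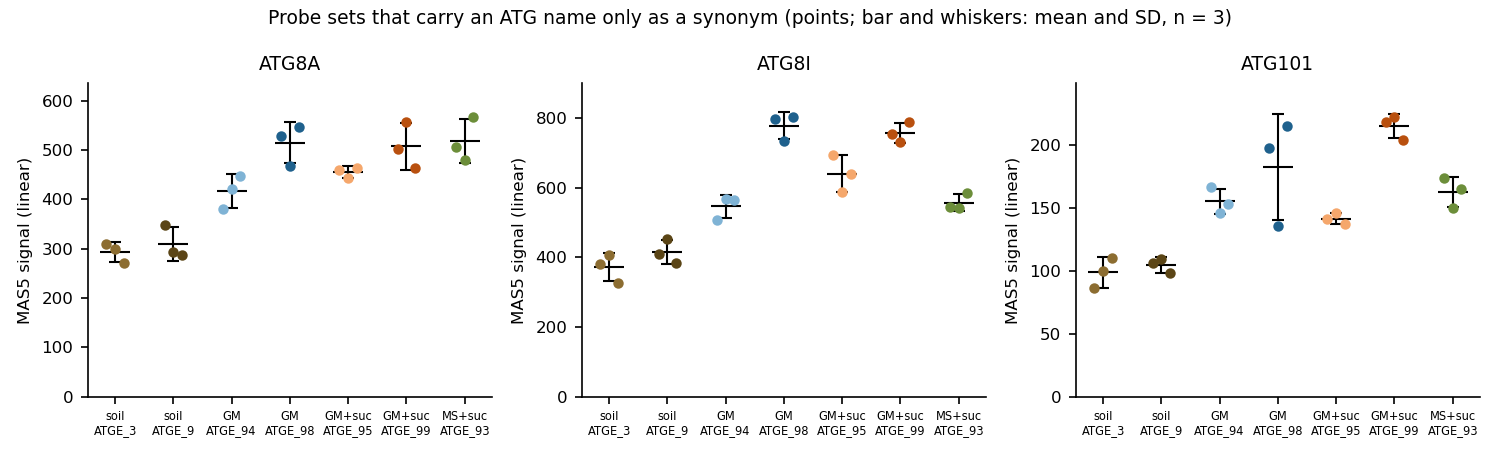
MAS5 signal (linear scale, y axis) of ATG8A, ATG8I and ATG101 on every array, by group (x axis). Points are arrays, and the bar and whiskers give the mean and SD (n = 3). Both soil groups lie below the plate groups, with ATG8A at 271 to 349 on soil and 380 or more on plates.

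Of 34 other genes of the pathway and of its control, listed by locus, 10 had a probe set with 1 gene and 9 passed the filter. They were VPS38, of the lipid kinase complex, C53, a receptor for breakdown of endoplasmic reticulum, SH3P2 and CFS1, which act at membranes, RAPTOR1 and RAPTOR2 of the TOR complex, the SnRK1 beta subunits AKINBETA1 and AKINBETA2, and the ubiquitin ligase SINAT1. With sucrose 0 were higher and 2 lower of 9 in the younger plates, beside 34.4% of all probe sets called, and 0 higher and 1 lower in the later, beside 24.6%. With stage 1 was higher and 2 lower both on GM, beside 41.7%, and on GM with sucrose, beside 47.9%. On soil 1 was higher with stage and 0 lower, beside 26.7%. On soil against GM 0 were higher and 3 lower in the earlier sets, beside 65.5%, and 1 higher and 3 lower in the later, beside 66.8%. In ATGE_93 against ATGE_99 1 was higher and 3 lower, beside 56.3%. The difference of the sucrose responses gave 0 calls, beside 12.5%, and the difference of the stage effects 0 higher and 1 lower, beside 30.5%. In every one of these comparisons the share of the 9 genes called was below that of all probe sets.

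CFS1 (AT3G43230), a protein that links autophagosomes to endosomes, went with most ATG8 genes on soil. It read 111 ± 8.54 in ATGE_3 against 206 ± 13.1 in ATGE_94 (log2 −0.89 ± 0.07, SE, n = 3 per group, limma adjusted p = 1.37e-10), and 125 ± 4.44 in ATGE_9 against 245 ± 10.2 in ATGE_98 (log2 −0.97 ± 0.07, adjusted p = 2.24e-11). RAPTOR1 (AT3G08850) read 108 ± 7.28 in ATGE_3 against 173 ± 30.9 in ATGE_94 (log2 −0.67 ± 0.11), and was lower with sucrose in the younger plates (log2 −0.40 ± 0.11, limma adjusted p = 0.00691). In the later plates its sucrose difference was −0.10 ± 0.11 (limma adjusted p = 0.572). AKINBETA1 (AT5G21170), whose transcript is known to rise when sugar is short, fell with sucrose from 445 ± 24.6 to 233 ± 16.8 in the younger plates (log2 −0.93 ± 0.08) and from 399 ± 28.7 to 231 ± 6.27 in the later (log2 −0.79 ± 0.08). Beside this, ATG8E fell and ATG8H rose with sucrose in the same groups. AKINBETA1 was also lower on soil than on GM in the earlier sets (log2 −0.90 ± 0.08, limma adjusted p = 3.75e-10). In the later sets this difference did not pass (log2 −0.13 ± 0.08, limma adjusted p = 0.131). AKINBETA1 rose with stage on soil (log2 0.62 ± 0.08), and its stage effect differed, GM minus soil, by −0.77 ± 0.11. AKINBETA2 (AT4G16360) fell with stage on GM and on GM with sucrose (log2 −0.29 ± 0.09 and −0.33 ± 0.09). SINAT1 fell there too (log2 −0.52 ± 0.20 in both), while CFS1 rose (log2 0.25 ± 0.07 and 0.30 ± 0.07). In these comparisons 6 and 7 of the 8 ATG genes rose, beside 21.3% and 27.9% of all probe sets tested.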

How the data were processed

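The 21 arrays were Affymetrix ATH1 arrays of biotin-labelled cRNA from total RNA of roots. The authors deposited 1 intensity per probe set on a linear scale, a MAS5 signal per the submitters' processing notes, and the arrays share a trimmed mean. The version of the software is not given in the sources used here. Log2 of the signal was used as it stood, without a pseudocount. Probe sets above the 40th percentile of their array on at least 3 of 21 arrays were tested, 15284 of 22810, since MAS5 values of dim probe sets are noisy. The platform annotation gave 13513 probe sets 1 gene, 503 several and 8730 none, and 64 were controls.

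For each probe set limma (version 3.58.1, under R 4.3.3) estimated the 7 group means from the 21 arrays together, leaving 14 residual degrees of freedom, and eBayes moderated the variances along a trend on intensity, and p-values were adjusted by Benjamini-Hochberg within each comparison over all probe sets tested, with a threshold of 0.05. The fit was tested on simulated data. Errors given with group means are SD and those given with log2 differences are SE. Groups came from the sample labels. Every array's value was given for members that passed the F test with highest and lowest group means at least 1.5-fold apart, which was all 8. The members, the marker and pathway lists and the comparisons were chosen with earlier results of these data known. Samples with the same replicate letter did not deviate together, so the letter was used as a block only as an alternative. The other alternatives were quantile normalization, median centring, a pseudocount, no filter and a stricter one at the 60th percentile, no intensity trend, only the groups compared, and each array left out. The number of arrays limits the precision. No sequence or genome position was used here. Figures were drawn with matplotlib 3.10.9.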

Additional observations from a re-analysis of the deposited data

Results flagged for a closer look

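In 4 of the 8 genes the change from the earlier to the later set differed between GM and soil. This was a limma test of the difference itself, with n = 3 per group, and was chosen after the levels had been seen. The time between the sets is not given for either substrate, so interval and substrate cannot be told apart. Of all probe sets tested 30.5% passed this test, 17.1% in the same direction as the 4. Among the probe sets named by synonym, ATG8I passed it too, at 0.35 (limma adjusted p = 0.0236), and ATG8A and ATG101 did not. Whether the ATG8I call holds under the alternatives was not examined. The difference, GM minus soil, was 1.11 on the log2 scale for ATG8B, which rose from 90.4 to 235 on GM and from 75.2 to 90.4 on soil. For ATG8G it was 0.81, with means of 71.3 and 128 on GM against 96.6 and 99.1 on soil. For ATG8D it was 0.71, with 134 and 202 on GM against 108 and 100.04 on soil. For ATG8E it was 0.40, with 281 and 399 on GM against 180.5 and 194 on soil. The call of ATG8E was lost under 9 of 20 alternatives, 7 of them the loss of a single array, and after median centring its difference was 0.26 (limma adjusted p = 0.147).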

How the results depend on the processing

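Of 50 calls made for the 8 genes over the comparisons, 36 held under every alternative run, and of 30 values not called, 23 passed under none. In ATGE_93 against ATGE_99, median centring turned ATG3 to 0.029 and ATG8F to 0.021, neither past the threshold, and left 4 genes called in place of 7, as did the fit with no intensity trend, also 4. The fit with no trend called 1 gene with sucrose in the later plates in place of 2, and quantile normalization called 1 gene, ATG8F, for the difference of the sucrose responses in place of 0. Leaving out each array in turn gave 1 to 4 genes called with stage on soil, 4 to 5 in ATGE_93 against ATGE_99, 1 to 2 with sucrose in the later plates, and 1237 to 2603 probe sets in all for the difference of the sucrose responses. The causes were not tested.

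The replicate letters did not pair the samples: of 63 same-letter pairs 0 had deviations that correlated over 0.1 (median r 0.0074), and 8 of 21 arrays correlated best with their own letter. With the letter as a block, 2 of the 50 calls were lost, ATG8B with stage on soil (0.27, adjusted p = 0.0550) and ATG3 in ATGE_93 against ATGE_99 (adjusted p = 0.0615, limma).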

Other observations

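Averaged over the 8 ATG genes, log2 signal relative to each gene's own mean was lowest in both soil groups. Across the 7 group means, 27 of 28 pairs of the genes correlated above 0, with a median Pearson r of 0.76. The pair furthest from the others was ATG8G with ATG8H, at −0.19, and the closest was ATG8B with ATG8C, at 0.96. These are descriptions over 7 groups that share their arrays, with no test. Pairs of other probe sets were not measured in this way, so such correlations are not shown to be particular to ATG genes. Among 8323 other probe sets with 1 gene, the 5 whose group means followed the average of the 8 most closely were those of AT3G48020 (r = 0.994), AT3G57380 (0.992), FACT (AT5G63560, 0.991), AT2G20010 (0.991) and AT1G70880 (0.989). With 7 points and so many probe sets, such values say nothing of a link between these genes and autophagy.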
